A study of Homo sapiens with 18 samples.

Results

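The genes described here are 42 genes of the G2/M transition and mitosis, chosen as the rows of the count table whose Ensembl identifiers map to a list of 42 symbols. They are 42 of the 58395 identifiers in the table, and all 42 were found and passed the filter on low counts. RNA was sequenced from BxPC-3, an established human pancreatic cancer cell line kept in RPMI with fetal bovine serum, penicillin-streptomycin and Plasmocin. Cells were given 1 of 3 treatments, namely vehicle (PBS), HGF (hepatocyte growth factor, which binds the receptor MET) at 80 ng/ml, or MSP (macrophage-stimulating protein, which binds the related receptor RON) at 100 ng/ml, and RNA was taken after 1 h or after 4 h. Each of the 6 groups had 3 libraries, 18 in all. By its title the study set these ligand and receptor pairs against each other, so the comparisons are each ligand with vehicle, the ligands with each other, and the 2 times with each other. The sources used here do not say whether serum was withdrawn before treatment. All groups are of 1 cell line, and the labels leave unsaid whether the 3 libraries of a group were separate cultures. A p-value here therefore measures the spread between libraries alone, which may be technical.

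Entry into mitosis is driven by CDK1 bound to cyclin B, which is held inactive by WEE1 kinases and released by CDC25 phosphatases. Polo and aurora kinases, kinesin motors and kinetochore proteins then build the spindle, the checkpoint proteins wait for attachment, and the anaphase-promoting complex with CDC20 ends mitosis by marking cyclins and securin for destruction. Transcripts of most of these genes are low in G1 and rise through S and G2, where B-MYB and FOXM1 complexes bind their promoters. In a dividing culture such as a cancer line their level therefore also follows the share of cells in G2 and mitosis. In bulk RNA, fewer cells in these phases and less RNA per cell cannot be told apart.

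Total counts per library ranged from 30556613 to 48477215, and 16794 genes entered the tests. Levels are CPM, the share of a library's counts that a gene takes, with library sizes adjusted by TMM factors for unequal composition. The HGF libraries at 4 h had the lowest of these factors, 0.84 to 0.86, against 0.98 to 1.07 in the other 15 libraries, so values at 4 h after HGF depend on the scaling, and the results that turn on it are given both ways. Keratin genes of the ductal line were high (KRT19 1750 to 2520 CPM of library totals), and SMAD4 and CDKN2A, which are deleted in BxPC-3, were at 0 counts in every library. Of the 9 fibroblast markers COL1A1 was highest, at 7.96 to 12.1 CPM of library totals, followed by COL3A1 at 2.78 to 6.88, and COL1A2 had at most 0.0586. Of the 9 leukocyte and endothelial markers VWF was highest, at 0.854 to 6.6 CPM, CD3E was at 0.801 to 1.45 and PTPRC had at most 0.0982.

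The genes differed widely in abundance. Per kilobase of exon, the level in vehicle cells at 1 h was highest for UBE2C, the ubiquitin-conjugating enzyme of the anaphase-promoting complex, at 107 ± 6.7 CPM per kilobase (SD, n = 3). TOP2A, the topoisomerase that untangles replicated chromosomes, followed at 91.0 ± 3.51, then CDC20 at 90.7 ± 2.11 and TPX2, a spindle protein that activates aurora A, at 88.4 ± 3.77. The levels of TOP2A, CDC20 and TPX2 differed by less than their spread. CCNB1, cyclin B1, was next at 76.9 ± 2.86 CPM per kilobase. CDC25C, a phosphatase that activates CDK1, stood near the bottom at 5.40 ± 0.433. PRC1, a protein that bundles microtubules between the separating chromosomes, was last at 0.0967 ± 0.013 CPM per kilobase, with 11 to 35 counts per library. In the GENCODE 29 annotation PRC1 shares 3181 exon bases with AC068831.7 on the same strand, so its counts are uncertain. The other 41 genes had 116 to 27458 counts in a library. Of these, NUSAP1 shares 1787 of 2875 exon bases on the same strand with AC087721.2, which has no line in the count table. BUB1B shares 457 with BUB1B-PAK6 and CENPA 138 with SLC35F6, also on the same strand. How reads in these bases were assigned is not known.

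The promoter sequences are shown because these genes are known for shared elements in them. The cell cycle genes homology region (CHR) is the element that DREAM and B-MYB complexes contact, and the CCAAT box is the element bound by NF-Y. RefSeq (GRCh38.p14) gave a promoter for 35 of the 42 genes, and not for AURKA, TTK, FOXM1, BUB3, UBE2C, BIRC5 and TPX2. Both strands of the 250 bases before the start were searched for TTTGAA or TTCGAA as the CHR and for CCAAT. A CHR was present in 18 of 35 (51.4%), against 14.3% of all 35116 promoters, and a CCAAT box in 27 (77.1%), against 32.0%. Both were present in 16 (45.7%), against 5.05%. A match is a description of the letters and not a measured binding site.

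The 4 promoters below belong to the genes with the smallest adjusted p after HGF at 4 h among those with a CHR. Capitals mark the CHR (TTTGAA, or TTCAAA where it lies on the other strand) and the CCAAT box (CCAAT, or ATTGG on the other strand), and each sequence is written 5′ to 3′ on the strand of the gene. In CCNB2 the CHR starts 29 bases before the RefSeq start and in BUB1B 23 bases before it, while DLGAP5 has 1 at 138 and 1 at 109 bases and TOP2A has 1 at 194 and 1 at 151 bases. In GENCODE 29 the loci start elsewhere. Those of CCNB2 (chr15:59105078) and BUB1B (chr15:40161023) start inside these windows, so there the CHR lies after the start.
CCNB2, chr15:59104896-59105145, plus strand: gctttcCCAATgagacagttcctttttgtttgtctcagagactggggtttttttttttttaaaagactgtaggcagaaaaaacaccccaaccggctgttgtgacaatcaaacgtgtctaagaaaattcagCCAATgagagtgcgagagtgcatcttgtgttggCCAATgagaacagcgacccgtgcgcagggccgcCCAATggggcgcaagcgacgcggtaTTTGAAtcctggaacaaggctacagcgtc
DLGAP5, chr14:55191586-55191835, minus strand: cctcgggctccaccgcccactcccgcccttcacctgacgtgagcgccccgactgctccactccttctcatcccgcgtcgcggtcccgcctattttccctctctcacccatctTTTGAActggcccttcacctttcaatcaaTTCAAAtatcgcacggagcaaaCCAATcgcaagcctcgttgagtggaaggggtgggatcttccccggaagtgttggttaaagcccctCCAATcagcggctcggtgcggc
TOP2A, chr17:40417897-40418146, minus strand: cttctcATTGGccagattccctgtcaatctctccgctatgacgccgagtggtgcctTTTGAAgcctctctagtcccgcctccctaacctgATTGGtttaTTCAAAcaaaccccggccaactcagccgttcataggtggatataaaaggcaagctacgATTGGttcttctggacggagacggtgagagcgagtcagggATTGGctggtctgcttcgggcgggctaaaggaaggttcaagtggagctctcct
BUB1B, chr15:40160819-40161068, plus strand: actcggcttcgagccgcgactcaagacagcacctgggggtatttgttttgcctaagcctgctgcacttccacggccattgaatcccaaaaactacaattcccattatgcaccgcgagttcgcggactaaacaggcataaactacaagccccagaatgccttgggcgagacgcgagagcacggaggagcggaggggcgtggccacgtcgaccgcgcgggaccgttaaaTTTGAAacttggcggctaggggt
CCNB2 and TOP2A each carry 4 CCAAT boxes, DLGAP5 carries 2 and BUB1B carries 0 in this window. Among the 35 genes, the 18 with a CHR had a median log2 fold change of -0.553 after HGF at 4 h and the 17 without had -0.594, so presence of these letters did not separate the genes by their change. Over all genes tested whose promoter was in the table, the medians were -0.131 for 1166 with a CHR and -0.0117 for 10294 without.

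After 4 h of HGF most of the 42 genes were lower than in vehicle cells collected at the same time. The summed level of all 42 was 3455, 3689 and 3687 CPM in the 3 HGF libraries, against 4772, 4996 and 4804 CPM in the vehicle libraries, and the groups did not overlap. Of the 42, 34 fell, 4 rose and 4 did not pass the threshold, an adjusted p of 0.05 in the quasi-likelihood test of edgeR, adjusted by Benjamini-Hochberg over all 16794 genes. Among all genes tested 34.8% fell and 33.1% rose, so the share of the 42 that fell (81.0%) was above the background and the share that rose (9.52%) was below it. The median log2 fold change of the 42 was -0.54, against -0.06 for all genes. Every HGF library was below every vehicle library for 37 of the 42, against 36.3% of all genes tested. In a test against a minimum change of 1.5-fold, 10 fell past it and 0 rose, against backgrounds of 13.6% and 13.7%. At an unadjusted p under 0.05 without the minimum change, 34 were lower and 4 higher. DESeq2 placed 6 of the 42 past 1.5-fold lower, and its share over all genes was not computed. Markers of other cell types also differed between these groups. The summed level of the 9 leukocyte and endothelial markers was 4.32 to 5.29 CPM of library totals after HGF and 10.5 to 11.2 CPM in vehicle, and for 5 of the 9 every HGF library was below every vehicle library. Most of that difference was VWF, at 0.854 to 1.63 CPM after HGF and 4.86 to 5.86 CPM in vehicle, while PTPRC had 4 counts or fewer in any library. The 9 fibroblast markers summed to 13.4 to 14.3 CPM against 16.2 to 18.8 CPM, with COL3A1 below and PDGFRA above vehicle in every HGF library. The part of these markers in the result was not tested.

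The scaling sets the zero line of this comparison. When library totals replaced the TMM factors, the median of all genes moved to -0.35 and that of the 42 genes to -0.83. The 42 stood 0.48 below the median of all genes under either scaling. A change of scaling shifts all genes by nearly the same amount, so this gap could not differ and is no check of the result. Under library totals 39 fell and 0 rose, against 52.0% and 21.2% of all genes tested. Of all genes called, 48.7% were higher with TMM factors and 28.9% with library totals.

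**Figure D1:**
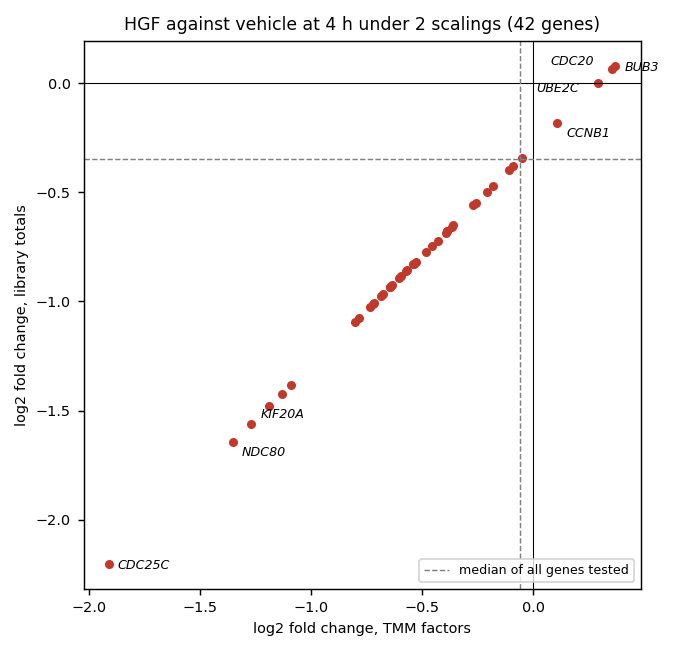
Log2 fold change of each of the 42 genes for HGF against vehicle at 4 h, with TMM factors on the x axis and with library totals on the y axis; dashed lines mark the median of all genes tested (-0.06 and -0.35). Points lie on a line parallel to the diagonal, CCNB1 is above 0 on the x axis and below 0 on the y axis, and BUB3, CDC20 and UBE2C, which rose with TMM factors, are near 0 on the y axis.

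Among the cyclins, CDK1 and the CDC25 phosphatases, 5 of 6 fell after HGF at 4 h. CDC25C was at 16.1, 15.7 and 16.2 CPM in vehicle libraries and at 4.57, 4.32 and 3.92 CPM in HGF libraries. The HGF values were all below 5 CPM and far from the vehicle values, a 3.76-fold fall (log2 -1.91 ± 0.091 SE, edgeR adjusted p = 5.56e-18), the largest of the 42. CDC25B, the phosphatase that acts earlier in G2, was at 243, 269 and 249 CPM in vehicle and 158, 174 and 168 CPM in HGF libraries (log2 -0.60 ± 0.0437, edgeR adjusted p = 1.69e-13). CCNB2, cyclin B2, was at 90.5, 95.8 and 93.2 CPM in vehicle and 54.9, 58.3 and 61.6 CPM in HGF libraries (log2 -0.68 ± 0.0516, edgeR adjusted p = 5.69e-13). The groups did not overlap for either gene. CCNA2, the cyclin A of S phase and G2, fell by 0.27 on the log2 scale.

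CDK1 itself fell by less, and the call depended on the setting. It was at 87.2, 98.4 and 88.7 CPM in vehicle and 75.6, 82.1 and 83.9 CPM after HGF, with all HGF values below all vehicle values (log2 -0.18 ± 0.0745, edgeR adjusted p = 0.036). The call was lost with RLE size factors (log2 -0.15, adjusted p = 0.0809), in DESeq2 (0.0839), without replicate 2 of vehicle (0.168) and without replicate 1 (0.151) or replicate 2 (0.064) of HGF. With library totals the fall was larger (log2 -0.47, adjusted p = 2.55e-06). CCNB1 went the other way from CCNB2. It was at 171, 178 and 166 CPM in vehicle and 177, 191 and 187 CPM in HGF libraries, and the groups overlapped. Its rise (log2 0.11 ± 0.0463, edgeR adjusted p = 0.0398) became a fall with library totals (log2 -0.18, adjusted p = 0.000412). The call was also lost without any 1 of 4 libraries, namely replicate 1 (adjusted p = 0.0841) or 3 (0.154) of vehicle and replicate 2 (0.149) or 3 (0.104) of HGF, and in a fit on only these groups (0.0559).

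All 4 mitotic kinases and the transcription factor FOXM1 fell after HGF at 4 h. TTK, the kinase that starts the spindle checkpoint, was at 44.4, 49.7 and 50.7 CPM in vehicle and 20.5, 21.2 and 24.4 CPM in HGF libraries (log2 -1.13 ± 0.0811, edgeR adjusted p = 5.23e-12). AURKA, the aurora kinase of the centrosome, was at 95.7, 104 and 95.2 CPM in vehicle and 70.8, 78.3 and 76.6 CPM in HGF libraries (log2 -0.39 ± 0.0554, edgeR adjusted p = 3.35e-07). AURKB, the aurora kinase of the centromere, had a log2 fold change of -0.39 as well. PLK1, the polo kinase of mitotic entry, fell least of the 5: it was at 116, 125 and 115 CPM in vehicle and 98.6, 108 and 102 CPM after HGF (log2 -0.21 ± 0.0475, edgeR adjusted p = 0.00031). FOXM1, which activates many G2/M genes, was at 148, 139 and 136 CPM in vehicle and 111, 111 and 105 CPM after HGF (log2 -0.37 ± 0.0417, edgeR adjusted p = 4.04e-09). For each of these 5 the groups did not overlap. FOXM1 shares 781 exon bases with ITFG2 on the opposite strand, and no source used here gives the strand setting.

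The spindle checkpoint and anaphase genes split. BUB1, BUB1B and PTTG1 fell, BUB3, CDC20 and UBE2C rose, and MAD2L1 did not pass the threshold (log2 -0.11, edgeR adjusted p = 0.14), although with library totals it fell (log2 -0.40). BUB1B, the checkpoint protein that holds CDC20, was at 55.0, 63.4 and 58.3 CPM in vehicle and 33.0, 36.9 and 32.7 CPM in HGF libraries (log2 -0.79 ± 0.0668, edgeR adjusted p = 1.56e-11). PTTG1, which encodes securin, had a log2 fold change of -0.36. CDC20, the activator of the anaphase-promoting complex, was at 179, 176 and 165 CPM in vehicle and 215, 229 and 220 CPM in HGF libraries, without overlap. Its log2 fold change was 0.35 ± 0.0426 (edgeR adjusted p = 1.21e-08) with TMM factors and 0.06 (adjusted p = 0.15) with library totals. BUB3, a checkpoint adaptor that binds BUB1 and BUB1B, was at 158, 160 and 162 CPM in vehicle and 205, 202 and 213 CPM in HGF libraries. It rose by 0.37 ± 0.048 (edgeR adjusted p = 5.28e-08), against 0.08 (adjusted p = 0.123) with library totals. UBE2C was at 123, 137 and 116 CPM in vehicle and 151, 158 and 153 CPM in HGF libraries (log2 0.29 ± 0.0632, edgeR adjusted p = 0.000259), and with library totals its log2 fold change was 0.00054 (adjusted p = 0.994). All 3 lay above the median of all genes, a position that the scaling does not alter. CDC20P1, a processed copy of CDC20, had 33 to 73 counts per library against at least 5651 for CDC20.

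Of the 8 mitotic kinesins, 7 fell. KIF20A, the motor that carries polo kinase to the central spindle, had the smallest adjusted p of the 42 genes. It was at 129, 134 and 125 CPM in vehicle and 50.6, 53.2 and 57.1 CPM after HGF, with no overlap (log2 -1.27 ± 0.0501, edgeR adjusted p = 5.16e-20). KIF11, the motor that pushes spindle poles apart, was at 82.0, 85.4 and 87.3 CPM in vehicle and 46.4, 50.6 and 48.9 CPM in HGF libraries (log2 -0.80 ± 0.0696, edgeR adjusted p = 2.7e-10). KIF2C, a motor that takes microtubules apart at the centromere, was at 113, 117 and 107 CPM against 68.1, 73.1 and 74.5 CPM (log2 -0.64 ± 0.053, edgeR adjusted p = 3.63e-12). KIF18A, KIF20B, KIF4A and KIF14 fell by 0.72, 0.72, 0.57 and 0.26 on the log2 scale. KIF23, a motor of the central spindle and of cytokinesis, did not pass the threshold: it was at 104, 114 and 105 CPM in vehicle and 98.6, 100 and 104 CPM after HGF (log2 -0.09 ± 0.0497, edgeR adjusted p = 0.107), although with library totals it fell (log2 -0.38).

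KIF20A and CDC25C lie close together on chromosome 5 in GENCODE 29 (GRCh38), KIF20A at chr5:138178719-138187715 and CDC25C at chr5:138285265-138338355. KIF20A shares exon bases with BRD8 (132) and CDC23 (68) on the opposite strand and CDC25C shares 293 with FAM53C, so reads of these partners could not be told apart without strand. CDC23, a subunit of the anaphase-promoting complex, fell by 0.26 on the log2 scale in the same comparison. Leaving out every gene with an exon overlap kept 25 of the 42, of which 20 fell and 4 rose.

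All 6 centromere and kinetochore genes fell after HGF at 4 h. NDC80, which joins kinetochores to microtubules, was at 34.0, 35.1 and 35.9 CPM in vehicle and 13.4, 13.9 and 13.9 CPM in HGF libraries, a 2.55-fold fall (log2 -1.35 ± 0.0668, edgeR adjusted p = 1.35e-17). NUF2, its partner in the same complex, was at 18.3, 20.8 and 21.2 CPM against 13.3, 13.2 and 14.0 CPM, a smaller fall (log2 -0.57 ± 0.0848, edgeR adjusted p = 6.06e-07). CENPF, a large protein of the outer kinetochore that builds up in G2, was at 210, 213 and 214 CPM in vehicle and 83.1, 99.8 and 96.4 CPM after HGF (log2 -1.19 ± 0.0665, edgeR adjusted p = 1.41e-13). The groups were well apart for all 3. CENPE, the kinetochore motor, BIRC5, which encodes survivin, and CENPA, the centromeric histone, had log2 fold changes of -0.54, -0.43 and -0.39.

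Of the 10 spindle, cytokinesis and chromosome genes, 8 fell. TOP2A was at 435, 459 and 435 CPM in vehicle and 248, 273 and 278 CPM in HGF libraries (log2 -0.73 ± 0.0578, edgeR adjusted p = 1.46e-11). ASPM, a protein of the spindle poles, was at 115, 120 and 128 CPM against 55.0, 55.5 and 60.0 CPM (log2 -1.09 ± 0.0874, edgeR adjusted p = 3.29e-09). MKI67, which encodes the proliferation antigen Ki-67, was at 461, 451 and 465 CPM in vehicle and 302, 343 and 342 CPM after HGF (log2 -0.48 ± 0.0692, edgeR adjusted p = 3.67e-06). None of these overlapped between groups. HMMR, DLGAP5, NUSAP1, TPX2 and ANLN fell by 0.69, 0.64, 0.63, 0.53 and 0.45 on the log2 scale. ECT2, the exchange factor that starts the cleavage furrow, was at 101, 103 and 107 CPM in vehicle and 99.4, 96.7 and 104 CPM after HGF, overlapping groups that did not pass the threshold (log2 -0.05 ± 0.0647, edgeR adjusted p = 0.492), although with library totals ECT2 fell (log2 -0.34). PRC1 had a log2 fold change of -0.54 ± 0.314 (edgeR adjusted p = 0.129) at its few counts, and with library totals it fell (log2 -0.83, adjusted p = 0.0182).

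**Figure D2:**
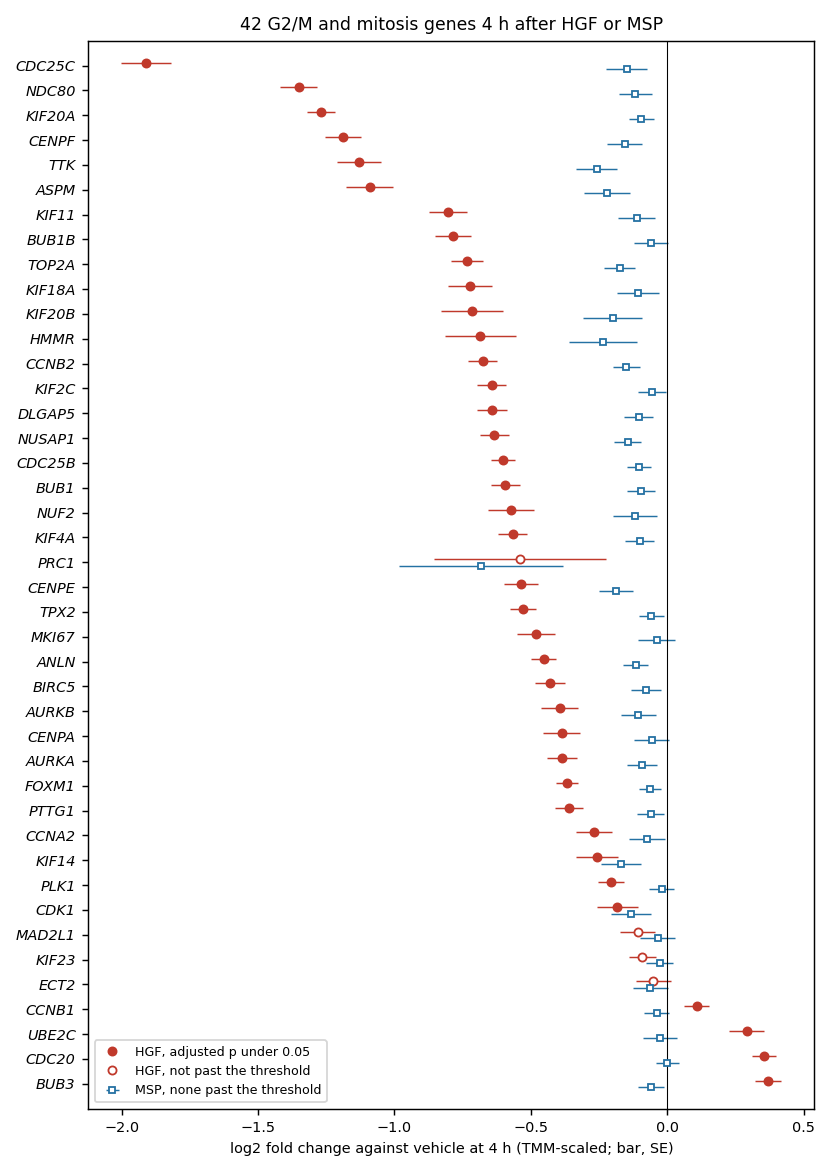
Log2 fold change against vehicle at 4 h (x axis, TMM-scaled, bars are SE) of each of the 42 genes for HGF (circles, filled where the edgeR adjusted p was under 0.05) and MSP (squares, 0 past the threshold). HGF values run from -1.91 for CDC25C to 0.37 for BUB3, while MSP values sit nearer to 0 and 41 of 42 are on its left; with library totals CCNB1 changes sign for HGF and the rises of CDC20, BUB3 and UBE2C are not called.

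The size of the fall after HGF at 4 h was compared with features of the genes that the choice of members did not use, as a description across 42 genes that share the same libraries. Spearman's rho of the log2 fold change was -0.45 with the length of the locus, -0.15 with exon length and 0.25 with the level per kilobase in vehicle cells at 1 h. Without PRC1 these were -0.45, -0.16 and 0.26. The fold change is signed, so a negative rho means that genes with larger values fell more. These correlations were not computed over all genes tested, so a trend common to all genes cannot be told apart from 1 of these 42.

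At 1 h of HGF the calls among the 42 genes were rises with TMM factors, and mostly falls with library totals. With TMM factors 6 rose and 0 fell, against 13.8% and 7.16% of all genes tested, so the share that rose (14.3%) was near the background. At an unadjusted p under 0.05, 7 were higher and 2 lower. The median log2 fold change was 0.01, against -0.00 for all genes. KIF23 was at 135, 145 and 135 CPM in vehicle and 160, 174 and 181 CPM in HGF libraries (log2 0.32 ± 0.0481, edgeR adjusted p = 4.98e-06). KIF14, a kinesin of cytokinesis, was at 53.1, 58.4 and 51.6 CPM in vehicle and 69.1, 76.1 and 75.2 CPM in HGF libraries (log2 0.43 ± 0.0712, edgeR adjusted p = 3.85e-05). The groups did not overlap for either of these cytokinesis motors.

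UBE2C was at 133, 148 and 133 CPM in vehicle at 1 h and 165, 174 and 162 CPM after HGF (log2 0.27 ± 0.0623, edgeR adjusted p = 0.00186). CDC20 was at 185, 189 and 180 CPM against 210, 212 and 203 CPM (log2 0.17 ± 0.0422, edgeR adjusted p = 0.00238). These 2 were the only genes of the 42 called higher at both times with TMM factors. CDC25B was at 276, 276 and 279 CPM in vehicle and 311, 310 and 300 CPM after HGF (log2 0.15 ± 0.0428, edgeR adjusted p = 0.0107), and the call was lost without replicate 2 of vehicle (adjusted p = 0.05). AURKA was at 106, 115 and 101 CPM against 115, 126 and 120 CPM, which touch (log2 0.16 ± 0.0535, edgeR adjusted p = 0.0278). Its call was lost without any 1 of 4 libraries, namely replicate 1 (adjusted p = 0.101) or 3 (0.22) of vehicle and replicate 2 (0.168) or 3 (0.0762) of HGF. With library totals 3 rose (KIF14, KIF23 and UBE2C) and 10 fell, among them TTK, TOP2A and CENPF (log2 -0.28, -0.21 and -0.26). The backgrounds were then 9.07% higher and 21.4% lower, and the median of all genes was -0.11.

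CCNB1, CDK1, PLK1 and FOXM1 did not pass the threshold at 1 h, with log2 fold changes of 0.09, 0.06, 0.12 and 0.0036 (edgeR adjusted p = 0.168, 0.658, 0.0747 and 0.973). With library totals CCNB1, CDK1 and FOXM1 were below 0 (-0.0090, -0.043 and -0.098), still not called in edgeR. TOP2A and MKI67 each had a log2 fold change of -0.11 (edgeR adjusted p = 0.196 and 0.292), and with library totals both were called lower (log2 -0.21 and -0.22, adjusted p = 0.00353 and 0.0268).

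**Figure D3:**
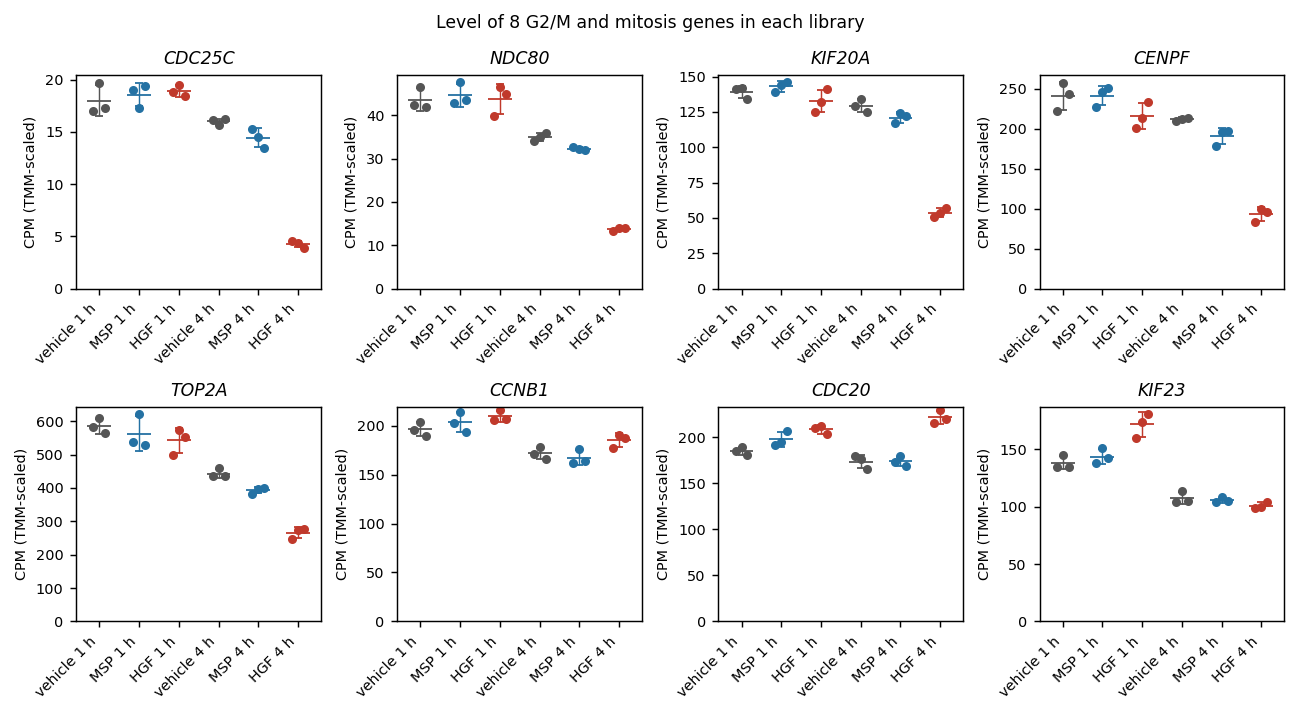
Level in CPM (TMM-scaled, y axis from 0) of 8 of the genes in each of the 18 libraries, grouped by treatment and time (x axis); points are libraries, horizontal lines are means and bars are SD (n = 3). CDC25C, NDC80, KIF20A, CENPF and TOP2A are lowest in HGF at 4 h, KIF23 is highest in HGF at 1 h, and CDC20 is highest in HGF at 4 h with TMM factors; with library totals CCNB1 at 4 h lies lower after HGF than in vehicle.

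The response to HGF was tested for a change between 1 h and 4 h by the interaction of ligand and time. Of the 42 genes, 33 had a lower response at 4 h and 2 a higher one, against 26.4% and 26.8% of all genes tested. The median of this difference was -0.58 on the log2 scale. CDC25C had the largest (log2 -1.98 ± 0.117, edgeR adjusted p = 4.92e-15), with a log2 fold change of 0.07 at 1 h and -1.91 at 4 h. KIF14 went from a rise of 0.43 to a fall of 0.26 (difference -0.69 ± 0.104, edgeR adjusted p = 3.8e-06). AURKA and CDC25B were also called higher at 1 h and lower at 4 h, with differences of -0.55 and -0.75. KIF23 went from a rise to a value that was not called (difference -0.41 ± 0.0692, edgeR adjusted p = 8.89e-06). The response of BUB3 was higher at 4 h by 0.32 ± 0.0674 (edgeR adjusted p = 0.00016) and that of CDC20 by 0.18 ± 0.0599 (edgeR adjusted p = 0.0117), and with library totals 0 responses were called higher, that of CDC20 turning to -0.0084. With TMM factors UBE2C had the same response at both times within its error (difference 0.02 ± 0.0886). With library totals its log2 fold change was 0.17 at 1 h and 0.00054 at 4 h. That difference of -0.17 was not called (edgeR adjusted p = 0.102).

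**Figure D4:**
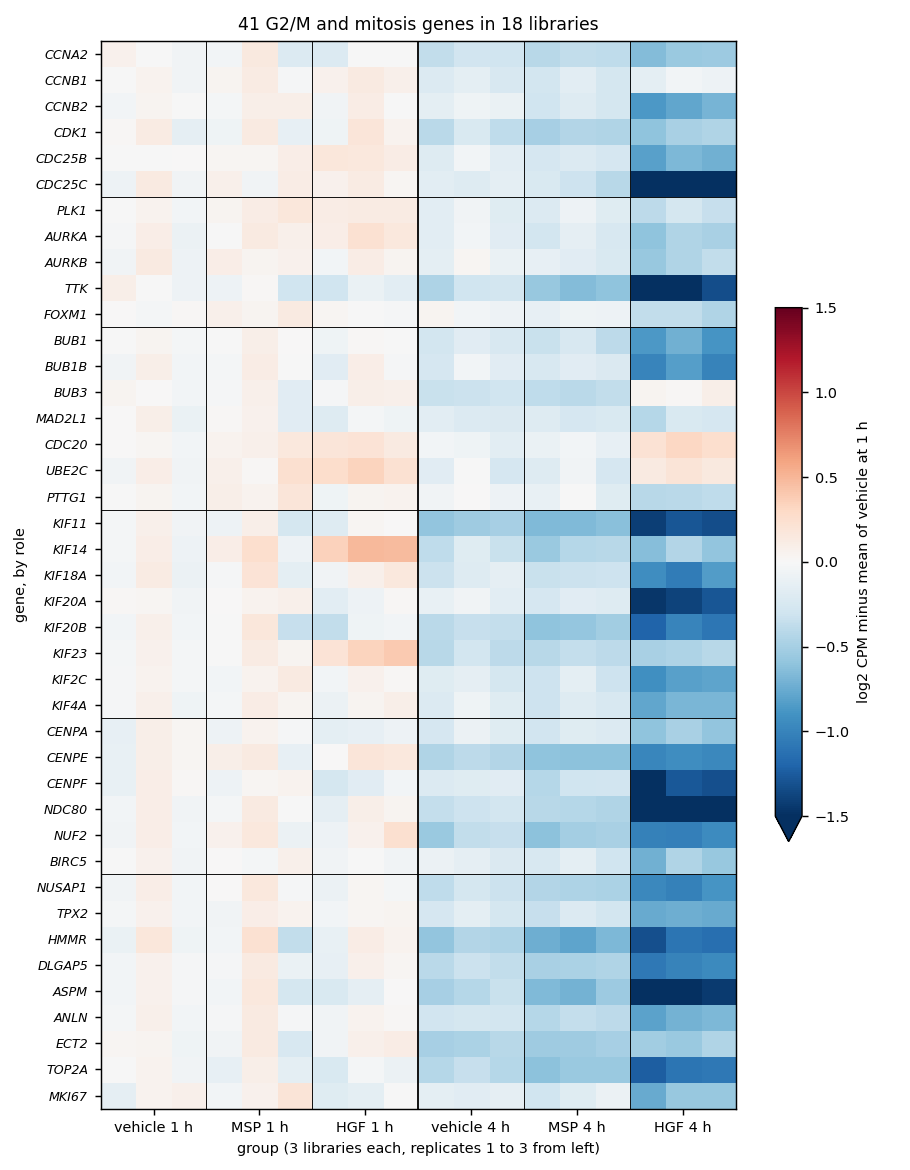
Log2 CPM minus the mean of vehicle at 1 h, by colour, for 41 of the 42 genes (rows, by role; PRC1 is left out for its few counts) in the 18 libraries (columns, 3 per group). The 3 columns of HGF at 4 h are the lowest for most rows, the vehicle and MSP columns at 4 h are slightly below those at 1 h, and BUB3, CDC20 and UBE2C do not go down after HGF at 4 h with TMM factors; with library totals all 3 are within 0.08 of vehicle at 4 h.

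Vehicle cells also differed between the times. At 4 h 28 of the 42 were lower than at 1 h and 0 higher, against 9.99% and 10.9% of all genes tested, and the median log2 fold change was -0.21, against -0.00 for all genes. By DESeq2 or by library totals, too, 0 were higher, and at an unadjusted p under 0.05 37 were lower and 0 higher. Past 1.5-fold 0 were lower and 0 higher, against 0.0715% and 0.0119% of all genes. The largest fall was that of KIF11, from 121, 130 and 119 CPM to 82.0, 85.4 and 87.3 CPM (log2 -0.54 ± 0.0658, edgeR adjusted p = 3.86e-06). KIF23 fell by 0.36, CENPE by 0.43, ECT2 by 0.46, TOP2A by 0.40 and BUB3 by 0.32 on the log2 scale. CDK1 fell by 0.34 and CCNB1 by 0.20, while FOXM1 (-0.03), MKI67 (-0.15) and AURKA (-0.13) did not pass the threshold. PLK1 fell by 0.13 (edgeR adjusted p = 0.0382), a call lost without any 1 of 4 vehicle libraries: replicate 1 (adjusted p = 0.066) or 2 (0.181) at 1 h, and replicate 1 (0.138) or 3 (0.153) at 4 h.

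Vehicle at 4 h is a control for the fall over time and is shared by the comparison with HGF at 4 h, so overlap between these comparisons is not read as a result. Side by side, BUB3 went from 206, 200 and 194 CPM in vehicle at 1 h to 158, 160 and 162 CPM in vehicle at 4 h, while the HGF libraries at 4 h were at 205, 202 and 213 CPM, 2 of them within the range of vehicle at 1 h and 1 above it. KIF11, by contrast, went from at least 119 CPM in vehicle at 1 h to 46.4 to 50.6 CPM after 4 h of HGF. ECT2 was lower at 4 h than at 1 h in vehicle and in HGF libraries, with no call between these.

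After MSP 0 of the 42 genes passed the threshold at either time. At 1 h the smallest adjusted p in edgeR was 0.587, with 4 genes higher and 0 lower at an unadjusted p under 0.05, and DESeq2 also called 0. The background was 0.78% higher and 0.0536% lower. At 4 h 41 of the 42 were below 0, against 50.9% of all genes tested, the median log2 fold change was -0.10 and the smallest adjusted p was 0.111, for TTK. At an unadjusted p under 0.05, 11 were lower and 0 higher. DESeq2 called 1 lower, and a fit on only the MSP and vehicle libraries of 4 h called 8 lower. The backgrounds were 0.292% lower and 0.774% higher in the fit of all groups, and 1.02% and 1.53% in the fit on only these groups. Every MSP library was below every vehicle library for 21 of the 42, against 9.13% of all genes.

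TTK was at 44.4, 49.7 and 50.7 CPM in vehicle at 4 h and 41.5, 39.1 and 40.5 CPM after MSP (log2 -0.26 ± 0.0752). TOP2A was at 435, 459 and 435 CPM against 382, 398 and 399 CPM (log2 -0.17 ± 0.057, edgeR adjusted p = 0.159). In both, MSP values lay below vehicle values and above the HGF values. CCNB1, CDK1, PLK1, AURKA, MKI67 and FOXM1 had log2 fold changes of -0.04, -0.13, -0.02, -0.09, -0.04 and -0.06 after MSP at 4 h. The MSP response did not pass the threshold for a change between the times in any of the 42 (0 called by edgeR, 10 lower and 0 higher at an unadjusted p under 0.05, 0 by DESeq2, background 0.274% lower and 0.0476% higher), with all 42 differences below 0 and a median of -0.14.

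More of the 42 genes were called between the ligands at 4 h than at 1 h. HGF was higher than MSP at 1 h in 2 of the 42 (background 11.4%), KIF14 (log2 0.33) and KIF23 (log2 0.26), and lower in 0 (background 6.36%, 3 at an unadjusted p under 0.05, 1 by DESeq2). With library totals 13 were lower, against 18.5% of all genes. Without replicate 3 of HGF at 1 h 3 were lower (846 of 17073 genes tested). Without replicate 2 of MSP at 1 h the count higher was 4 (2002 of 17078 genes tested). At 4 h 32 were lower after HGF than after MSP and 4 higher, against 33.8% and 32.7% of all genes, and 7 were lower and 0 higher past 1.5-fold, against 11.8% and 12.2%. The median was -0.45. CDC25C was at 15.3, 14.5 and 13.5 CPM after MSP and 4.57, 4.32 and 3.92 CPM after HGF (log2 -1.76 ± 0.091, edgeR adjusted p = 5e-17). KIF20A was at 117, 124 and 122 CPM against 50.6, 53.2 and 57.1 CPM (log2 -1.17 ± 0.05, edgeR adjusted p = 4.35e-19). The genes higher after HGF were BUB3, CDC20, UBE2C and CCNB1, at log2 0.43, 0.35, 0.32 and 0.15, and with library totals 1 remained called while CCNB1 turned to -0.15. CDK1 did not pass the threshold between the ligands (log2 -0.05 ± 0.0743, edgeR adjusted p = 0.567), and with library totals it was lower after HGF (log2 -0.35, adjusted p = 0.00012). The HGF libraries are the same as in the comparison with vehicle.

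Genes of the same pathway outside the 42 were examined in 7 lists. For HGF against vehicle at 4 h the backgrounds over all genes tested were 33.1% higher and 34.8% lower. With library totals they were 21.2% and 52.0%. At 1 h they were 13.8% and 7.16%, and 9.07% and 21.4% with library totals. Of 42 other G2/M genes tested, 29 fell and 5 rose after HGF at 4 h, with a median of -0.38 (36 and 2 with library totals). WEE1, the kinase that restrains CDK1, rose at 1 h (64.0 ± 1.2 to 121 ± 3.84 CPM, n = 3, log2 0.92 ± 0.0575, edgeR adjusted p = 3.03e-14) and fell at 4 h (56.4 ± 2.77 to 28.6 ± 3.88 CPM, log2 -0.98 ± 0.0636, edgeR adjusted p = 1.16e-14). HMGB2, a chromatin protein, had the largest fall of that list at 4 h, from 180 ± 10.7 to 52.0 ± 1.88 CPM (log2 -1.79). CIT, citron kinase of cytokinesis, fell by 1.33, while CDC25A, the phosphatase of S phase entry, rose by 0.85 and TRIP13, which takes checkpoint complexes apart, by 0.46. At 1 h this list had 7 rises and 1 fall with TMM factors, and 4 rises and 7 falls with library totals. CKS2 and MASTL rose by 0.28 and 0.29 with TMM factors.

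Kinetochore and centromere subunits outside the 42 had 20 falls and 3 rises among 31 after HGF at 4 h (median -0.40). With library totals they had 28 falls and 2 rises. DSN1 fell from 27.2 ± 2.27 to 8.01 ± 0.511 CPM (log2 -1.76) and CENPC by 1.40, while MAD1L1, the partner of MAD2, rose by 0.83. MIS12 rose at both times (log2 0.55 and 0.41), the second only with TMM factors (0.12 with library totals, adjusted p = 0.1). Condensin and cohesin genes had 9 falls and 3 rises among 18, and 16 falls and 2 rises with library totals. With TMM factors NCAPD2 was at -0.89 and the cohesin release factor WAPL at 0.59. NCAPG2, at 0.15, turned to -0.14 with library totals.

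The anaphase-promoting complex genes depended on the scaling. Of 16 tested, 8 rose and 1 fell after HGF at 4 h with TMM factors (median 0.14), although with library totals 5 rose and 8 fell (median -0.15). Both medians lie above that of all genes, a position that the scaling does not alter. UBE2S, which works with UBE2C on this complex, rose from 121 ± 6.28 to 263 ± 13.5 CPM (log2 1.13 ± 0.0531, edgeR adjusted p = 4.23e-18) at 4 h and by 0.64 at 1 h. ANAPC7 and ANAPC5 rose by 0.66 and 0.49. FBXO5, an inhibitor of the complex, fell by 0.58 at 1 h.

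Of 17 DREAM, MuvB, RB and E2F genes, 6 rose and 10 fell at 4 h, against backgrounds of 33.1% and 34.8% (4 and 11 with library totals, against 21.2% and 52.0%). The repressor-type E2F4 rose from 91.2 ± 5.47 to 202 ± 4.77 CPM (log2 1.15), and E2F3 and E2F5 by 0.90 and 2.15. The DP partner TFDP2 fell by 1.58, E2F2 by 2.08 and E2F8 by 2.15. Of 16 genes that restrain the G2/M transition, 8 rose and 3 fell at 1 h, against backgrounds of 13.8% and 7.16%. With library totals 8 rose and 4 fell, against 9.07% and 21.4%. CDKN1A, which encodes the CDK inhibitor p21, rose from 104 ± 3.48 to 489 ± 37.9 CPM at 1 h (log2 2.23) and was at 344 ± 2.74 against 102 ± 4.08 CPM at 4 h (log2 1.76). SFN, which encodes a 14-3-3 protein, rose from 636 ± 12.7 to 2230 ± 61.7 CPM at 4 h (log2 1.81). BTG2, an antiproliferative gene, rose by 2.27 at 1 h and fell by 1.17 at 4 h, while CDKN1B, which encodes p27, fell at both times (by 1.39 and 1.06). At 4 h the list of restraining genes had 8 rises and 6 falls (median 0.17), against backgrounds of 33.1% and 34.8%. With library totals it had 7 and 7 (median -0.12), against 21.2% and 52.0%.

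DNA replication and G1/S genes fell along with the mitotic genes after HGF at 4 h, 22 of 28 with a median of -0.48. The 1 that rose was CCNE1 (log2 0.56), which encodes cyclin E. With library totals 25 fell and 1 rose. MCM2, a subunit of the replicative helicase, fell from 136 ± 12.8 to 49.3 ± 1.87 CPM (log2 -1.47). In vehicle cells from 1 h to 4 h this list had 10 rises and 2 falls, where the 42 mitotic genes had 0 and 28. After MSP at 4 h 1 gene of the 7 lists was called, TFDP2, which was lower (log2 -0.20, edgeR adjusted p = 0.0287). Over all genes tested 0.292% were lower and 0.774% higher. At 1 h 3 genes of the 7 lists were called higher after MSP, with CDKN1A at 0.40 (edgeR adjusted p = 1.89e-06). All 3 were among the 16 restraining genes tested, and the background was 0.78% higher and 0.0536% lower. So few calls are not read as a response of a list.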

How the data were processed

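RNA of 18 BxPC-3 samples was measured in 6 groups of 3, by libraries made with a KAPA mRNA kit and run in 2 lanes each, per the labels' protocols. The authors deposited whole-number counts per gene, with both lanes combined in 1 column per sample. The tools were STAR and featureCounts of Subread, per the submitters' processing notes. Versions, genome build, annotation and strand setting are not given in the sources used. All 18 columns were used, and the table had 58395 identifiers and no line without a gene. Identifiers were named from a table of gene names (57754 found, 41885 with a symbol), and lengths, loci and overlaps came from GENCODE 29 (58275 found).

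Genes were kept by filterByExpr (minimum count 10, minimum total 15), which left 16794 genes. The robust quasi-likelihood model of edgeR 4.0.16 (R 4.3.3) was fitted with TMM factors and a mean for each of the 6 groups (residual df 12, biological coefficient of variation 5.23%). In each of 9 comparisons Benjamini-Hochberg adjustment covered all genes tested, the threshold was 0.05, and glmTreat tested changes beyond 1.5-fold. The SE is the log2 fold change divided by the square root of F. Levels were CPM as mean ± SD. The fit was tested on simulated data. Every pair of replicates differed beyond counting noise, with a chi-square of 3.03 to 20.2 per degree of freedom. Total counts per library were 30556613 to 48477215, which sets the precision of each count.

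The members, the pathway and marker lists and the motifs were chosen with earlier results of these data known. The genes named were, for each comparison, at most 8 called members per direction with the smallest adjusted p, and always CCNB1, CDK1, PLK1, AURKA, TOP2A, MKI67 and FOXM1. For each pathway list they were at most 3 called genes per direction for HGF at 1 h and 4 h. Members named beyond that were added to complete their role after their values were seen. Alternatives were library totals, RLE size factors, DESeq2 1.42.0, no filter on low counts, a fit on only the groups compared, a fit that was not robust, the replicate number as a block, and leaving out each library.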

Additional observations from a re-analysis of the deposited data

Results flagged for a closer look

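The effect of HGF against vehicle differed between 1 h and 4 h for 33 genes in the lower and 2 in the higher direction, by the interaction test in edgeR (Benjamini-Hochberg adjusted p under 0.05, 3 libraries per group), and the 15 of them that the naming rule selects are given here. CDC20 (0.18) and BUB3 (0.32) had a higher response at 4 h on the log2 scale, and with library totals neither was called (CDC20 -0.0084, BUB3 0.13). The response was lower at 4 h for CDC25C (-1.98), NDC80 (-1.36), KIF20A (-1.20), CENPF (-1.03), CDC25B (-0.75), CCNB2 (-0.70), KIF2C (-0.66), DLGAP5 (-0.65), TOP2A (-0.62), AURKA (-0.55), FOXM1 (-0.37), MKI67 (-0.37) and PLK1 (-0.32).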

How the results depend on the processing

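Of 440 counts of genes recomputed under the alternatives, 413 stayed within 1.5 times the main count or equal to it. Counts of 0 that stayed at 0 are among the 413, so this share says little of the counts above 0. With library totals, 3 genes were higher and 10 lower for HGF against vehicle at 1 h, 0 were higher and 27 lower past 1.5-fold at 4 h, 13 were lower for HGF against MSP at 1 h, 1 was higher and 21 lower past 1.5-fold at 4 h, and 0 had a higher HGF response at 4 h than at 1 h. These follow the shift of the zero line by the TMM factors. Over all genes tested, library totals gave 9.07% higher and 21.4% lower for HGF at 1 h. For HGF against MSP they gave 18.5% lower at 1 h and 19.8% higher at 4 h, and 18.6% had a higher HGF response at 4 h. The shares of all genes past 1.5-fold were not computed with library totals or DESeq2, so those counts have no background here. With no filter, the counts lower were 4 (HGF at 1 h), 3 (MSP at 4 h) and 2 (HGF against MSP at 1 h). Of the 31931 genes then tested, 1398, 102 and 1212 were lower, in the same order. In a fit on only the groups compared the counts lower were 1 (HGF at 1 h) and 8 (MSP at 4 h), against 9.03% and 1.02% of all genes. DESeq2 gave 1 lower for MSP at 4 h, 1 lower for HGF against MSP at 1 h and 6 past 1.5-fold lower for HGF at 4 h. Over all genes DESeq2 called 105 of 11208 lower for MSP at 4 h and 1026 of 17129 for HGF against MSP at 1 h. The fit that was not robust gave 1 lower for HGF against MSP at 1 h, against 1066 of 16794 genes. For these differences from the main counts the cause was not tested.

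Leaving out 1 library at a time gave 0 to 1 lower for HGF at 1 h (1 without replicate 1 of vehicle or replicate 3 of HGF), 0 to 1 lower for MSP at 4 h (1 without replicate 1 of vehicle), 0 to 3 lower (3 without replicate 3 of HGF) and 2 to 4 higher (4 without replicate 2 of MSP) for HGF against MSP at 1 h. In those fits 1056 of 17069 and 1001 of 17073 genes were lower for HGF at 1 h, and 61 of 17194 for MSP at 4 h. For HGF against MSP at 1 h, 846 of 17073 were lower and 2002 of 17078 higher. The replicate numbers were not taken to pair the samples, since deviations of same-numbered libraries correlated by -0.065 to 0.12 over 45 pairs of libraries, most of them below 0.1. In 27 of these 45 pairs a library correlated best, among the 3 of the other group, with its own number. A number without information would give 1 in 3, so the share was above that. With TMM factors replicate 2 had the highest summed level of the 42 genes in each of the 6 groups. With library totals replicate 3 was highest in HGF at 1 h (5839 against 5836 CPM), HGF at 4 h (3112 against 3103) and MSP at 4 h (4797 against 4792). These are hints from the data and not from the design. With the replicate number as a block, 34 genes were lower for HGF at 4 h and 33 for vehicle over time, and the counts lower were 1 (HGF at 1 h), 1 (MSP at 4 h) and 2 (HGF against MSP at 1 h). Of all 16794 genes tested, 5859, 1753, 1294, 66 and 1163 were lower in these comparisons, in the same order.

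Single genes that changed sign were near 0 in most cases. With library totals, CCNB1 (-0.0090), CDK1 (-0.043) and FOXM1 (-0.098) did so for HGF at 1 h, CCNB1 for HGF at 4 h (-0.18), against MSP at 4 h (-0.15) and in the change of the HGF response (-0.17), CDC20 in that change (-0.0084), and CCNB1 (-0.051), CDK1 (-0.018) and PLK1 (-0.083) for HGF against MSP at 1 h. FOXM1 for HGF at 1 h was at -0.0032 with RLE size factors, -0.014 with no filter, -0.0028 with only the groups compared and -0.0022 with DESeq2. PLK1 for HGF against MSP at 1 h was at -0.00815 with no filter. Leaving out 1 library gave ranges across 0 of -0.010 to 0.11 (CDK1, HGF at 1 h), -0.099 to 0.041 (CDK1, MSP at 1 h), -0.013 to 0.0080 (FOXM1, HGF at 1 h), -0.0058 to 0.050 (CCNB1, change of the HGF response), -0.100 to 0.024 (TOP2A, HGF against MSP at 1 h), -0.023 to 0.039 (PLK1, HGF against MSP at 1 h), -0.056 to 0.019 (PLK1, MSP at 4 h) and -0.088 to 0.013 (MKI67, MSP at 4 h). At the depth of these libraries PRC1, with 11 to 35 counts, had an SE of 0.314 for HGF at 4 h, the largest of the 42 genes.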
